A study of Mus musculus with 5 samples.

Results

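PJ34, an inhibitor of the poly(ADP-ribose) polymerase (PARP) family, was compared with no treatment in Th2 cells that lack PARP-14, by chromatin immunoprecipitation and sequencing (ChIP-Seq) of RNA polymerase II phosphorylated at serine 2. The comparison rests on 2 of the 5 libraries of the series, Parp14-/- and Parp14-/- + PJ34. Its members were the loci whose summed peak height was 50 fragments or more in either library. This rule took 652 of 11608 gene lines, which formed 571 of 9794 loci once lines with identical heights in the 4 ChIP libraries were counted once. Of the 571 loci, 367 reached 50 in both libraries, 162 in Parp14-/- alone and 42 in Parp14-/- + PJ34 alone.

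PARP enzymes transfer ADP-ribose from NAD+ to proteins, and PJ34 occupies the site that binds NAD+. PARP-14 is a member of the family that works with STAT6, the transcription factor downstream of interleukin-4 (IL-4), in Th2 cells, the helper T cells that make IL-4, IL-5 and IL-13. With PARP-14 absent, PJ34 can still act on PARP-1 and other members. Phosphoserine 2 is the mark of polymerase that has left the promoter and is elongating, and it typically builds up toward and past the end of the transcribed gene.

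The ChIP libraries were made from wild type C57BL/6 (Parp14+/+) and Parp14-/- cells, each without and with PJ34, and the fifth library was input chromatin pooled over both genotypes. Where 4 heights are given for a gene, the first 2 are Parp14+/+ without and with PJ34, and the last 2 Parp14-/- without and with PJ34. All came from splenic naive CD4+CD62L+ cells of young adult mice on the C57BL/6 background. They were activated for 3 days with anti-CD3 and anti-CD28 under IL-4 (10 ng/ml) and anti-interferon-gamma, then expanded for 4 days in IL-2 (50 U/ml) and IL-4. The labels give PJ34 as 10 µM on differentiated cells, whereas the study's methods give a lower concentration present during culture, so the length of exposure is not settled by the sources used here. Parp14 was disrupted in the germ line, so the naive cells and every other cell of the donors lacked it too. Each group was 1 library, and nothing says how many mice were pooled in it. There was therefore no replicate, no test was possible, and every interval below covers counting error only.

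The value of a locus was the average peak height, the highest pile-up of sequenced fragments in each active region of the gene, averaged over its regions. An active region is a stretch where at least 1 library had a significant interval, and regions within about 5 kb of a gene were assigned to it. The summed height is that average times the number of regions. Parp14-/- + PJ34 heights were 0.934 of the Parp14-/- heights in the median of 9729 loci above 0 in both, and each ratio was divided by this median, a shift of -0.10 on the log2 scale. A locus with equal heights in both libraries thus has a scaled ratio of 1.07. The intervals were exact binomial (Clopper-Pearson, 95%), with the summed heights taken as counts.

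Markers were checked first. Gata3, the master regulator of Th2 cells, stood at 60, 58, 45 and 43, with an interval over its whole length in each. Intervals also overlapped Cd28, Cd3d and Cd3e in all 4 libraries. Cd4 had an interval in each but Parp14-/- without PJ34 (heights of 5.5, 6.5, 4 and 7), and Cd3g in Parp14+/+ without PJ34 alone (11, 15, 11 and 9). The Th1 genes Tbx21 (26 and 19 in the Parp14-/- pair) and Ifng (16 and 14) had intervals in all 4 libraries. Cd79b and Ms4a1 of B cells, Cd8a of CD8 T cells and Itgam of myeloid cells had no interval in any of the 4. However, of 3 genes listed as CD8 and NK cell markers, 1 had an interval in each Parp14+/+ library and 2 in each Parp14-/- library. The myeloid gene Csf1r had intervals over 3000, 4993, 0 and 193 bp, at heights of 8, 8.5, 6 and 5.5. Cd79a reached 34 and 28 in the Parp14-/- pair with no interval over the gene itself in either library. The height over Parp14 was 8, 11, 6.67 and 6.67, and intervals covered 22873, 20836, 2686 and 3286 bp of the gene. The disrupted part of the gene is not given in the sources used here, so this signal does not check the genotype. Il5, the eosinophil growth factor, had an interval in both Parp14+/+ libraries (height 21 in each) and in neither Parp14-/- library (4 and 6).

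Most of the 571 loci lay close to the median shift. The scaled ratio ran from 0.848 to 1.07 between the quartiles, with a median of 0.938, and 384 loci (67.3%) lay between 0.83 and 1.2. A ratio of 1.4 or more was found at 19 loci, 3.33% of the 571, against 13.7% of all 9729 loci. A ratio of 1/1.4 or less was found at 36 loci, 6.3% of the 571, against 13.2% of all loci. With scaling by the median of the 571 loci themselves the counts were 29 and 17, so which direction has more loci depends on the scaling. The counting interval kept clear of 1 for 14 of the 19 and 18 of the 36. Both shares were below those of all loci, most of which had few fragments, so the number past the fold is not in itself a result about the tall loci.

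**Figure D1:**
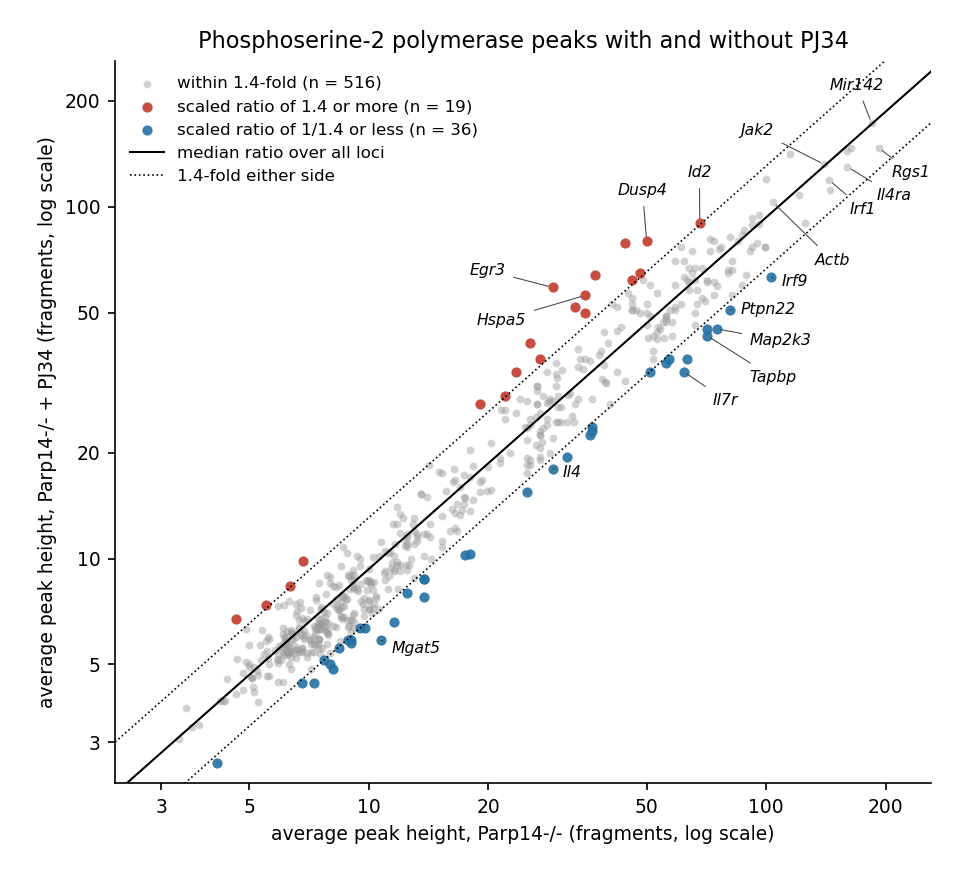
Average peak height of the 571 loci in Parp14-/- (x axis) and Parp14-/- + PJ34 (y axis), in fragments on log scales, 1 point a locus. The solid line is the median ratio over all loci (0.934) and the dotted lines lie 1.4-fold either side of it. Egr3, Dusp4 and Hspa5 sit above the upper dotted line, Irf9, Map2k3 and Il7r below the lower, and the tallest loci, such as Mir142 and Jak2, near the solid line.

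The height rule was applied before scaling and Parp14-/- was the taller library, so more loci passed through Parp14-/- alone. The excess of ratios below 1 (363 loci, against 208 above) is not read as a direction, since the part that this rule plays in it was not tested. When loci were chosen by a summed height of 50 or more in either Parp14+/+ library, which the ratio does not use, 635 loci had a median of 0.949, with 388 below 1 and 247 above, 11 at 1.4 or more and 23 at 1/1.4 or less. Of the 19 loci past the fold upward, 14 reached 50 in Parp14-/- + PJ34 alone, and of the 36 downward, 31 reached it in Parp14-/- alone. Just outside the rule, 177 loci with a summed height of 45 to 49 had a median ratio of 0.954, and 117 just inside, at 50 to 54, of 0.930.

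The 5 tallest loci in Parp14-/- all lay within 1.4-fold. Rgs1, a brake on chemokine receptor signals, was at 192 without PJ34 and 147 with it (ratio 0.820, interval 0.657 to 1.02). Mir142, the precursor of a microRNA of blood cells, was at 184 and 173 (1.01, 0.813 to 1.25). Il4ra, the receptor chain that binds IL-4, was at 160 and 130 (0.870, 0.685 to 1.1). The active region that holds Ddx5, an RNA helicase, and Polg2 was at 160 and 144 (0.964, 0.764 to 1.21). The remaining locus, on chromosome 17, has no gene name that fits its position and stood at 163 and 147. Of the 5, 4 were also the tallest 4 in Parp14-/- + PJ34, and Il4ra there stood below Egr1 (141) and Jak2 (132). The summits of Rgs1 and Il4ra lay beyond the end of the gene, within 286 and 854 bp. Actb, the cytoskeletal actin used as a reference gene, was at 104 and 103 (1.06, 0.800 to 1.41).

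Egr3 had the highest ratio. This zinc finger factor is induced within minutes by the T cell receptor. Its height was 30, 41, 29 and 59, a scaled ratio of 2.18 (1.37 to 3.52) without PARP-14 and 1.30 (0.793 to 2.16) with it. Parp14-/- + PJ34 was the tallest of the 4 libraries, and the peak lay beyond the end of the gene, by 5692 bp without PJ34 and 4612 bp with it in the Parp14-/- pair. Dusp4, a phosphatase that switches off MAP kinases, stood at 41, 46, 50 and 80, a ratio of 1.71 (1.19 to 2.49), again with the peak beyond the end of the gene, by 1564 and 1628 bp. In a population of cells, fewer cells that transcribe a gene and less polymerase on it per cell cannot be told apart, here and below. Ier2, a short immediate early gene, was at 46 and 62 in the Parp14-/- pair (1.44, 0.970 to 2.16).

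Hspa5, which encodes BiP, the chief chaperone of the endoplasmic reticulum, was at 34, 45, 35 and 56, a ratio of 1.71 (1.1 to 2.69). Nufip2, an RNA-binding partner of FMRP, was at 33 and 52 in the Parp14-/- pair (1.69, 1.07 to 2.69). The tallest region of Hexim1, which holds the elongation kinase P-TEFb inactive, was at 27 and 43, and its average over 2 regions at 19 and 27.5 (1.55, 1.01 to 2.41). Rps20, a protein of the small ribosomal subunit, was at 35 and 50 (1.53, 0.973 to 2.43). In these 4 genes the tallest point lay at the start of the gene in both libraries, within 59 bp inside it for Hspa5, Nufip2 and Rps20 and within 103 bp before it for Hexim1.

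The 200 bases before the start of these genes, and of Egr3 for comparison, are shown because the peaks of the first 4 sit beside them. They are read from mm9 on the strand of the gene, 5′ to 3′, up to the base before the start that the gene table gives. Capitals mark matches, on either strand, to any of 9 motifs. The CCAAT box was searched as the letters that name it, and the TATA box of core promoters as TATAAA. The GC box, to which SP1 and its relatives bind, was searched by the letters GGGCGG. For the ATF/CREB site of factors that answer to stress and cyclic AMP the letters were TGACG. The E-box of MYC and its partners was taken in the form CACGTG. The STAT site was TTCNNNGAA, where N is any base. The interferon response core, the endoplasmic reticulum stress element, which contains a CCAAT box, and the CArG box of serum response factor were the others.
Hspa5, chr2:34627415-34627614, plus strand: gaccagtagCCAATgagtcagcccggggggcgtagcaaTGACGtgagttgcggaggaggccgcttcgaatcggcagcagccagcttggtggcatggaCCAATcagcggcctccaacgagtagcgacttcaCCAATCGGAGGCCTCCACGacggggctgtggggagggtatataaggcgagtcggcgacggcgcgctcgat
Nufip2, chr11:77499457-77499656, plus strand: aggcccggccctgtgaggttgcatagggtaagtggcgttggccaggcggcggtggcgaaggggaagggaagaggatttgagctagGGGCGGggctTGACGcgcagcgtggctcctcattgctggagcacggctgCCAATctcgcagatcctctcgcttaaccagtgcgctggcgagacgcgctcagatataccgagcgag
Hexim1, chr11:102977439-102977638, plus strand: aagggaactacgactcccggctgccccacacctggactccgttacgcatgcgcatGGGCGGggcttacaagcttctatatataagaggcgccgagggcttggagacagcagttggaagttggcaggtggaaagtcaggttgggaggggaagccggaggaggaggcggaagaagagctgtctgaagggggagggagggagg
Rps20, chr4:3762748-3762947, minus strand: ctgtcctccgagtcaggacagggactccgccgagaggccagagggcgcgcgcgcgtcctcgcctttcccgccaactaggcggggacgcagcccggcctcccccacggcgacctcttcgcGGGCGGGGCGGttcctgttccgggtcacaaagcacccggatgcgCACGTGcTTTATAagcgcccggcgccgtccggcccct
Egr3, chr14:70477052-70477251, plus strand: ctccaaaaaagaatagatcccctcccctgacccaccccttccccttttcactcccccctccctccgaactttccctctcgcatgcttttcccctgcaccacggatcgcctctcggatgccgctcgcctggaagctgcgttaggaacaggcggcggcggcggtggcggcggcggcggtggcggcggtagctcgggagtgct

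The Hspa5 start holds 3 CCAAT boxes, of which 1 opens a full endoplasmic reticulum stress element, the site through which ATF6 acts in the unfolded protein response. Among 11605 gene starts of the table, 15 (0.129%) hold that element in the 200 bases before them, and 3518 (30.3%) hold a CCAAT box. A GC box was found before Nufip2, Hexim1 and Rps20 and before 53% of all starts. An ATF/CREB site was found before Hspa5 and Nufip2 and 23.8% of all. The letters TATAAA, on either strand, were found before 5.84% of all starts and before Rps20, there on the strand opposite the gene. Hspa5 and Hexim1 hold TATATAAG on the strand of the gene, which the search did not count, so it does not show that they lack a TATA box. Rps20 also has an E-box, found before 7.13% of all starts. The window of Egr3 holds none of the 9 motifs. A match is a description of the letters and not a site shown to be bound.

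Other loci past the fold upward stood for shared regions, for shapes of peak or for the way heights were averaged. Rabepk shares the Hspa5 region, Jmjd6 shares the region of the splicing factor gene Srsf2 (48 and 65; 1.45, 0.983 to 2.15), and the 19 loci formed 17 groups with no region in common. BC021614 was at 44 and 79 (1.92, 1.31 to 2.85), but the summit lay before the start of the gene, by 1465 bp without PJ34 and 313 bp with it. Fam171b, with 2 regions listed, was at 25.5 and 41, and yet its tallest interval was lower with PJ34, at 49 and 41. The average of 41 equals the height of that interval, so it seems to rest on 1 region, and the ratio is not read as a rise. The summit of that interval lay 3040 to 3349 bp before the gene, beyond the end of Itgav. Id2, an inhibitor of basic helix-loop-helix factors, was the tallest of the 19 in both libraries, at 68 and 90 (1.42, 1.02 to 1.97), and was also above 1 in Parp14+/+, at 82 and 98 (1.14, 0.840 to 1.55). The others, Ttc39c, Wdr33, Cast, Ptpn6 and Polr3b, had ratios of 1.41 to 1.56. All but Ptpn6 were averages over 6 to 10 low regions, with average heights of 4.63 to 9.83 in the Parp14-/- pair. Ttc39c had no interval in its regions in Parp14-/-, and the tallest points of Ttc39c and Wdr33 lay in the neighbours Cabyr and Sft2d3.

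Among loci lower with PJ34, the cytokine receptor gene Il7r was at 47, 42, 62 and 34. Its ratio of 0.587 (0.375 to 0.906) was the second lowest, and in Parp14+/+ it was 0.851 (0.548 to 1.32). Il7r carries the survival signal of IL-7 in T cells, and intervals covered all of it in each library. Irf9, the DNA-binding part of the complex that acts under type I interferon, was at 73, 60, 103 and 63, a ratio of 0.655 (0.471 to 0.905), against 0.783 (0.547 to 1.12) in Parp14+/+. The summit was at the same base in both Parp14-/- libraries, and Rnf31, a subunit of the linear ubiquitin ligase, shares that region. The Il7r peak lay in an intron, and the Irf9 peak 504 bp before the start that the gene table gives, in an exon of another annotated Irf9 transcript. The 200 bases before both starts are shown in the same way, as the lower counterpart of the genes above.
Il7r, chr15:9459614-9459813, minus strand: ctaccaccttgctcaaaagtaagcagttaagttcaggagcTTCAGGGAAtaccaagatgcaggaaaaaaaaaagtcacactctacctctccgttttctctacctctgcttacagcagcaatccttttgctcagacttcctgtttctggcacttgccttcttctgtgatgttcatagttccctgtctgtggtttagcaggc
Irf9, chr14:56223216-56223415, plus strand: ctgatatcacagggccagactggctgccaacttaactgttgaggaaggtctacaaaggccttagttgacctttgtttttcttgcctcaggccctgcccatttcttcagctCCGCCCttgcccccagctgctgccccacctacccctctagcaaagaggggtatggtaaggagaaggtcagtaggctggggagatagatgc
The Il7r window holds a STAT site, found before 4.69% of all starts, and the Irf9 window a GC box. Neither holds the interferon response core, which 2.22% of starts hold.

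Several signalling genes stood with them. Map2k3, a kinase that activates p38, was at 75 and 45 (0.642, 0.434 to 0.942), with the peak at the same base 1239 bp beyond the gene. Ptpn22, a phosphatase that restrains the T cell receptor, was at 81 and 51 (0.674, 0.465 to 0.969), and in Parp14+/+ at 80 and 56 (0.667, 0.465 to 0.95). Tnfsf11, which encodes RANK ligand, was at 71 and 45 (0.679, 0.456 to 1.00), and in Parp14+/+ at 79 and 55 (0.663, 0.461 to 0.948). Fosl2, an AP-1 subunit, was at 56 and 36 (0.688, 0.440 to 1.06) and in Parp14+/+ at 65 and 41 (0.601, 0.396 to 0.902). Ptpn22, Tnfsf11 and Fosl2 were thus past 1/1.4 in both genotypes, as was Il4, at 29 and 18 in Parp14-/- (0.665, 0.426 to 1.02) and 61 and 39 in Parp14+/+ (0.609, 0.452 to 0.816).

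Some names in the lower group stand for regions whose tallest point is at a neighbour. The region assigned to Tapbp and Daxx (71 and 43; 0.648, 0.433 to 0.960) peaked at the start of Rgl2, an effector of Ras-like GTPases. The region assigned to U2af2, a splicing factor subunit (63 and 37; 0.629, 0.407 to 0.958), peaked just before Epn1, an endocytic adaptor, and in Parp14+/+ it was at 62 and 34 (0.522, 0.333 to 0.806). Mgat5, a glycosyltransferase that limits T cell receptor clustering, had the lowest ratio (0.586, 0.390 to 0.868), as an average over 7 low regions of 10.71 and 5.86, whose tallest intervals were at 18 and 8. Tank, Rasgrp1, Arhgef10, Cnot4, Carm1 and Taok1 were likewise averages of 3 to 7 regions, with ratios of 0.603 to 0.651. The 36 loci formed 33 groups with no region in common, and 9 of them had a single region. At 10 of the 571 loci no region held an interval in either library. Each had 10 or more regions and an average height of 5 or less, so they passed by the number of their regions. They include the B cell genes Ebf1 and Bank1, whose regions were also drawn from libraries of B cells, and Tmem108, which is among the 36.

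**Figure D2:**
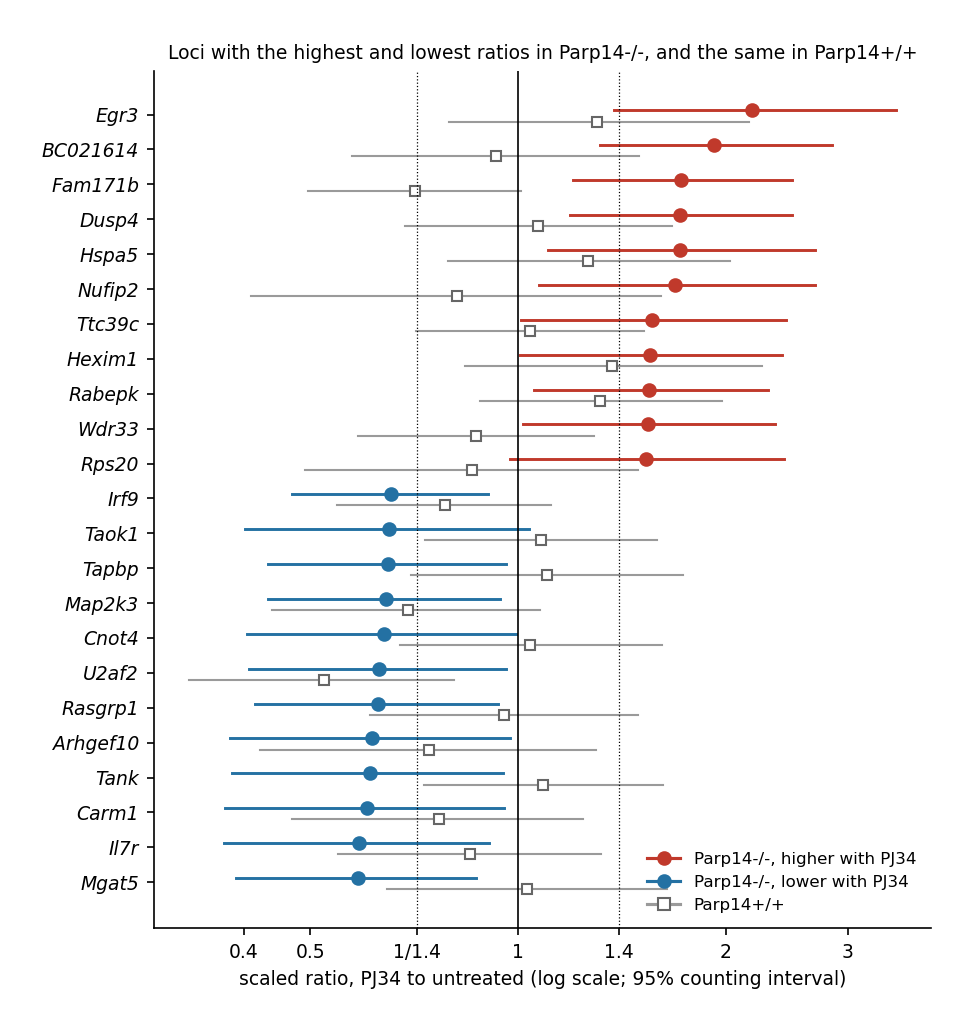
Scaled ratio of PJ34 to untreated height (log scale) for 23 loci among the highest and lowest of the 571, with 95% counting intervals. Filled circles are Parp14-/- and open squares the same loci in Parp14+/+. Egr3 is at 2.18 and Mgat5 at 0.586, and for 22 of the 23, all but U2af2, the Parp14+/+ square lies nearer to 1, as the choice of extremes in Parp14-/- by itself favours.

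The same 571 loci were set beside the pair that has PARP-14. The 2 pairs share no ChIP library. In Parp14+/+ the median scaled ratio of these loci was 0.991, with 9 at 1.4 or more (1.58%, against 13.1% of all loci in that pair) and 26 at 1/1.4 or less (4.55%, against 10.9%). Of the 19 loci past the fold upward in Parp14-/-, 11 were above 1 in Parp14+/+ and 8 below, with Fam171b past 1/1.4 downward. Of the 36 downward, 23 were below 1 in Parp14+/+, 7 of them past 1/1.4, and none past 1.4 upward. Across the 571 loci the log2 ratios of the 2 pairs had a Pearson correlation of 0.162, given as a description, since neighbouring loci share regions. Egr1, an immediate early factor, was high with PJ34 in both genotypes, at 57 and 124 in Parp14+/+ and 115 and 141 in Parp14-/-, but at 1.31 (1.02 to 1.69) in Parp14-/- it did not reach 1.4, and in Parp14+/+ it was at 2.07 (1.5 to 2.89).

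Gene lists give the pathway view. They were chosen with earlier results of these data known, and are described by counts beside those of all loci. Because few listed genes reach a summed height of 50, each list was also counted over every listed locus with an interval over the gene in either library of the pair. Of 5127 such loci, 2347 were above 1 and 2779 below, 441 (8.6%) were at 1.4 or more, 523 (10.2%) were at 1/1.4 or less, and the median was 0.975. Listed genes named below whose summed height is under 50 were chosen after their values were seen. A locus that has an interval in only the taller library enters because it is tall there, so these counts are not independent of the difference.

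Genes of the Th2 programme were mostly lower. All 5 that reached 50 were below 1, with a median of 0.811, and of 20 with an interval 17 were below 1, with 2 past the fold downward and 1 (Areg, at 6 and 8) upward, against 10.2% and 8.6% of all loci with an interval. Junb, an AP-1 subunit that drives IL-4 and shares its region with Prdx2, was at 65, 73, 125 and 90 (0.771, 0.581 to 1.02). The cytokine genes Il10, at 66 and 50 in the Parp14-/- pair (0.811, 0.550 to 1.19), and Il24, at 59 and 52 (0.944, 0.637 to 1.39), differed by less than counting error, as did Il13, at 17 and 10 (0.630, 0.258 to 1.46), and Stat6, at 11 and 8.5 (0.827, 0.412 to 1.63). The same list had a median of 0.825 in Parp14+/+, where 17 of the 20 were below 1. Gata3 was level (1.02, 0.658 to 1.59), and Csf2, which encodes GM-CSF, was at 31 and 35 (1.21, 0.724 to 2.03).

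The listed interferon-induced genes were also mostly lower in this genotype. All 6 of the list that reached 50 were below 1, with a median of 0.807, and 2 of them, Irf9 and Irf2, were past the fold. Gbp4, an interferon-induced GTPase that is not in the list, was at 50, 70, 96 and 95 (1.06), and Gm12185, also outside it, at a ratio of 1.18. Of 23 listed loci with an interval 16 were below 1, 4 past the fold and none past it upward. Irf1, a factor induced by interferon, was at 86, 110, 144 and 119, so that its ratio was 0.885 (0.688 to 1.14) in Parp14-/- and 1.22 in Parp14+/+. Irgm1, an immunity-related GTPase, went from 31 to 49 between the Parp14+/+ libraries and from 91 to 75 between the Parp14-/- libraries (0.882, 0.641 to 1.21). The median of the 23 was 0.870 in Parp14-/- and 1.1 in Parp14+/+, where 16 of 23 were above 1. The difference between the genotypes was not tested, since each group is 1 library.

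T cell receptor and costimulation genes included both directions. Of 9 that reached 50, 7 were below 1 and 2 past the fold (Il7r and Ptpn22), with a median of 0.833. Of 25 with an interval, 17 were below 1 and 8 above, 3 past the fold downward and 1 upward, with a median of 0.927. In Parp14+/+ the median of the 25 was 1.02, with 13 above 1 and 12 below. Il2ra, the high-affinity chain of the IL-2 receptor, which shares its region with Il15ra, was at 145 and 112 (0.827, 0.640 to 1.07), and Icos, a costimulatory receptor, at 40.5 and 27.5 (0.727, 0.507 to 1.04). Cd69, an early activation antigen, was level at 88 and 86 (1.05, 0.768 to 1.42). The STAT, SOCS and PIM genes, the transducers and feedback inhibitors of cytokine signals, stayed within a narrow band. The 6 that reached 50 had ratios of 1.01 to 1.11. Jak2 was at 140 and 132, Pim1 at 92 and 93, Cish at 92 and 89, and Socs1 at 63 and 62. Without scaling 2 of the 6 were taller with PJ34, 1 equal and 3 lower, with a median of 0.992, so their direction depends on the scaling.

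Histone genes stood on the other side. All 5 listed loci that reached 50 were above 1, with a median of 1.2, and of 23 with an interval 21 were above 1, 7 past the fold and none past it downward, with a median of 1.31. Without scaling 18 of the 23 were taller with PJ34, 3 equal and 2 lower. The region that holds the linker histone gene H1f2 and H3c3 was at 72 and 81 (1.2, 0.866 to 1.68), H1f4 at 32 and 43 (1.44, 0.889 to 2.35), and H1f5 at 11 and 22 (2.14, 0.995 to 4.89). H2ac4, which is not in the list, was at 30.67 and 34.33 as an average of 3 regions (1.2). No listed histone locus had a counting interval that kept clear of 1. The chromosome 13 genes lie in clusters, and neighbours share regions, so the 23 are not 23 separate measurements. Intervals covered 25 histone genes in Parp14-/- and 33 in Parp14-/- + PJ34, and 23 and 33 in the Parp14+/+ pair, where the median ratio of heights was 1.01.

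Ribosomal protein genes were above 1 at 52 of 75 loci with an interval, 9 past the fold and 2 past it downward, with a median of 1.07. That median is equality before scaling, where 34 were taller, 10 equal and 31 lower, so the list has no direction that holds under both. In Parp14+/+ 61 of the 75 were below 1, with a median of 0.841. Rpl4 was at 77, 70, 65 and 65, and Rpl3 at 69, 55, 46 and 51. Chaperone genes were above 1 at 16 of 24 loci, 6 past the fold and none past it downward. Without scaling 12 were taller, 2 equal and 10 lower, and in Parp14+/+ 9 were above 1 and 15 below, with a median of 0.953. Hspa8, the constitutive HSP70, was at 31 and 39 (1.35, 0.819 to 2.23), Hsp90aa1 at 27 and 34 (1.35, 0.790 to 2.32), and the chaperonin subunit genes Cct3 and Cct8 at 14 and 21 and at 16 and 23. Hsf1, the heat shock factor, was at 16.5 and 12.25 (0.795, 0.538 to 1.17), and the chaperone gene Hsp90ab1 at 45 and 42 (0.999, 0.640 to 1.56).

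Of 11 MHC class I and antigen processing loci with an interval, 8 were above 1, 4 of them past the fold, and 3 below, 1 of them past the fold, with a median of 1.30 and of 1.1 in Parp14+/+. H2-K1, a classical class I heavy chain, was at 17, 21, 19 and 49. Its ratio of 2.76 (1.60 to 4.97) was above that of every member, but its summed height of 49 kept it just outside the rule, and reads of class I genes can fall on near-identical copies. The neighbouring heavy chain gene H2-D1 was at 28 and 37 (1.41, 0.843 to 2.40), B2m, the light chain, at 64 and 67 (1.12, 0.784 to 1.60), and the shared region of Psmb8, Psmb9, Tap1 and Tap2, which cut and carry peptides, at 41 and 35 (0.914, 0.565 to 1.47). Of DNA damage and p53 target genes with an interval, 11 of 15 were above 1 and 5 past the fold, none of them tall. Pmaip1, a p53-induced BH3-only gene, was at 11 and 22 (2.14, 0.995 to 4.89) and Cdkn1a, the p21 cell cycle inhibitor, at 30 and 37 (1.32, 0.794 to 2.21), while in Parp14+/+ Cdkn1a was at 54 and 33. The median of the 15 was 1.14, and in Parp14+/+ 1.19, with 8 above 1 and 7 below. Of 10 immediate early genes that reached 50, 3 were past the fold upward (Egr3, Dusp4 and Ier2) and 1 downward (Fosl2), against 3.33% and 6.3% of the 571 loci. Of 30 with an interval 5 were past it upward and 3 downward, and without scaling 13 were taller, 4 equal and 13 lower, so the list had no single direction. Myc was at 71 and 62 and Nr4a3 at 89 and 64.

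**Figure D3:**
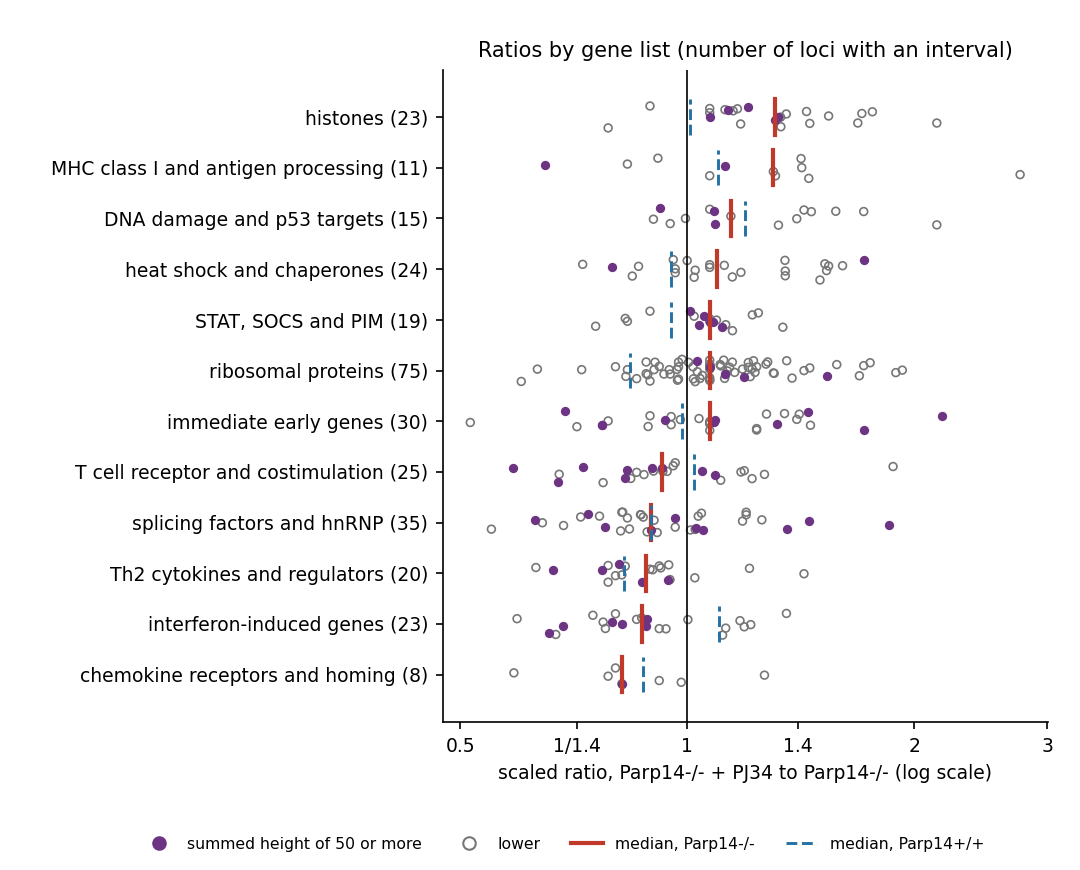
Scaled Parp14-/- + PJ34 to Parp14-/- ratio (log scale) of each listed locus with an interval in either library, filled where its summed height is 50 or more. The red bar is the list's median and the dashed blue bar its median in Parp14+/+; histones lie mostly right of 1 (median 1.31), and Th2 and interferon-induced genes mostly left of it, the latter at 0.870 with the Parp14+/+ bar at 1.1.

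The PARP genes themselves were low. Parp1 was at 5, 5.8, 3.8 and 4.2 (1.18, 0.606 to 2.33), and Parp14 was at 6.67 in both Parp14-/- libraries. Of 3 PARP loci that reached 50, Tnks, which encodes tankyrase, was at 14.2 and 18.4 (1.39, 1.01 to 1.92), with 1 of its 5 regions the tall one beyond Dusp4. Among factors that act on the polymerase, Polr2a, its catalytic subunit, was at 18 and 20.33 (1.21, 0.825 to 1.78) and Ccnt1, cyclin T1 of P-TEFb, at 17 and 13.33 (0.840, 0.541 to 1.30), and Hexim1 was the only one of 4 that reached 50 to pass the fold. In the splicing and hnRNP list 5 of 10 were above 1 and 5 below, with Srsf2 among those past the fold upward and U2af2 past it downward. Over its 35 loci with an interval, 13 were above 1 and 22 below, with 2 past the fold upward and 4 downward. The median of the 35 was 0.895, as it was in Parp14+/+.

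The remaining lists were smaller or mixed in direction. Chemokine receptor and homing genes were below 1 at 7 of 8 loci with an interval, with a median of 0.819 and of 0.873 in Parp14+/+. Oxidative phosphorylation genes were above 1 at 17 of 25 (median 1.05), but without scaling 9 were taller, 3 equal and 13 lower. Loci above 1 numbered, for cytoskeletal and housekeeping genes, 16 of 21 (median 1.12), for proteasome subunits 10 of 26 (0.961), for glycolytic enzymes 5 of 15 (0.918) and for translation factors 14 of 28 (1.00). Of 9 DNA replication genes (median 0.857) 3 were past the fold downward and 1 upward, and of 26 microRNA loci 3 each way.

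Gene length went with the ratio. The 42 loci under 5 kb had a median of 1.09, with 8 past the fold upward and 1 downward, whereas the 220 loci of 100 kb or more had a median of 0.937, with 2 upward and 7 downward. Over the 5127 loci with an interval the median was lower the longer the genes, from 1.02 under 5 kb (789 loci) through 0.994, 0.970 and 0.947 to 0.940 at 100 kb or more (555 loci), with quartiles of 0.865 to 1.21 and 0.833 to 1.07 in those 2 groups. In Parp14+/+ the order was the other way, from 0.953 under 5 kb to 1.03 at 100 kb or more. Long genes hold more regions and more of the background fragments, and the part this plays was not tested.

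**Figure D4:**
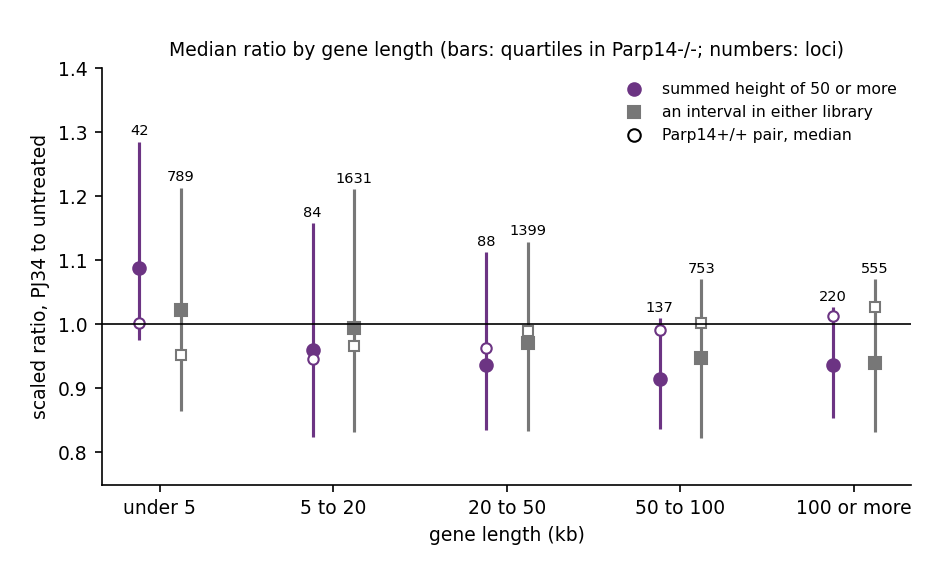
Median scaled ratio of PJ34 to untreated height by gene length in kb, for the loci with a summed height of 50 or more (purple) and for loci with an interval in either library (grey). Bars are the quartiles in Parp14-/- and numbers the loci in each group; filled grey symbols (Parp14-/-) go down from 1.02 under 5 kb to 0.940 at 100 kb or more, and open grey symbols (Parp14+/+) go up from 0.953 to 1.03.

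Medians by the place of the peak lay close together, within wide quartiles. Among 1056 active regions with an interval in both libraries and a height of 20 or more in either, each scaled by the median over all 4406 shared regions (0.9), the median ratio was 1.01 for the 323 whose Parp14-/- summit lay within 500 bp of the start of a protein-coding gene. It was 0.998 for the 331 within a gene and 0.968 for the 254 in the 5000 bp after a gene's end, with quartiles of 0.817 to 1.28, 0.813 to 1.18 and 0.809 to 1.19.

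Intervals, the stretches called significant over input in each library on its own, gave a second readout. Parp14-/- had 10228 and Parp14-/- + PJ34 8841, covering 73.8 and 65.5 Mb. Of the Parp14-/- intervals, 3251 (31.8%, 30.9 to 32.7) met no interval of Parp14-/- + PJ34, and of the latter 1754 (19.8%, 19.0 to 20.7) met none of the former. In the Parp14+/+ pair the same shares were 30.1% and 20.7%. The unmatched intervals were low, with a median height of 8 and 7, against 11 and 9 for those that overlapped. At a height of 15 or more the unmatched shares were 7.04% of 2075 and 3.56% of 1544, and in the Parp14+/+ pair 3.79% and 4.14%. Of the unmatched Parp14-/- intervals 57.9% met an interval of Parp14+/+, and of the unmatched Parp14-/- + PJ34 intervals 50.3%, against 91.1% and 91.7% of those shared. The tallest unmatched intervals were these. In Parp14-/- they were chr11:3000301-3007350, 30093 bp beyond Sfi1 (height 43), chr5:114622801-114623250 in an intron of Acacb (32, and 40 in Parp14+/+ + PJ34) and chr3:148715551-148716000, 63384 bp before Lphn2 (31). In Parp14-/- + PJ34 they were chr8:20019751-20020650 (37, and 37 in Parp14+/+ + PJ34), chr4:155608801-155610750, 1242 bp before Klhl17 (26, and 17 in Parp14+/+), and chr8:19784551-19785900 (26, and 24 in Parp14+/+ + PJ34).

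Along the gene, coverage by intervals was compared in the 2856 genes that were 10 kb or longer and overlapped an interval in each library, cut into 10 equal parts. In Parp14-/- intervals covered 42.6% of the part at the start, 31.9% of the part numbered 4 and 53.9% of the part at the end. In Parp14-/- + PJ34 the same parts were covered to 42.1%, 28.3% and 49.8%. The difference was -0.49 percentage points at the start and between -3.16 and -4.04 from the part numbered 3 to the end. In the Parp14+/+ pair it was larger throughout, from -5.63 at the start to -8.09 at the end. The profile kept its shape, lowest inside the gene and highest at its end, in all 4 libraries.

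**Figure D5:**
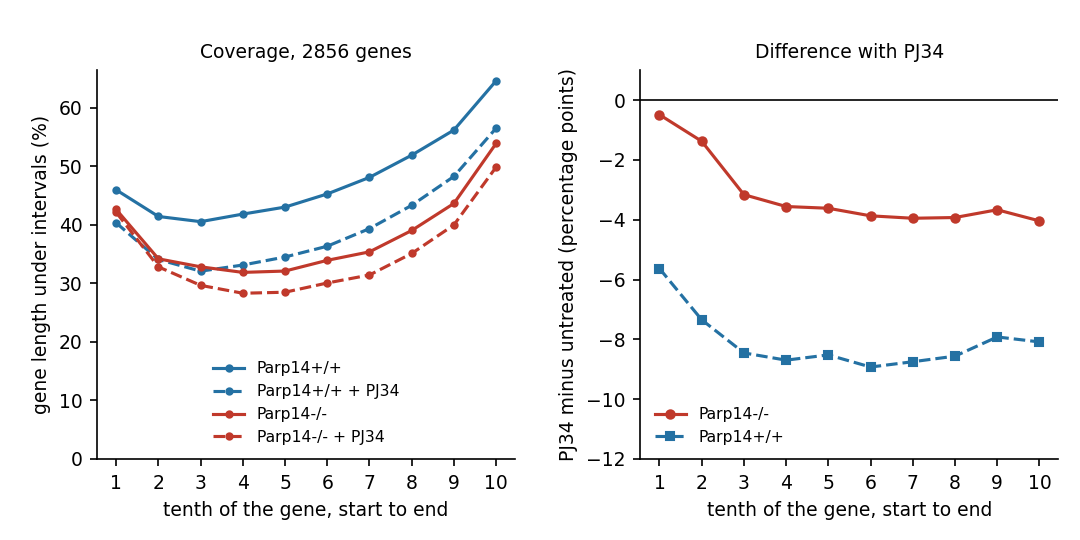
Left, percent of gene length under intervals in each of 10 equal parts from start to end, over 2856 genes, in the 4 ChIP libraries. Right, PJ34 minus untreated in percentage points; the Parp14-/- line goes from -0.49 at the start to -4.04 at the end and lies above the Parp14+/+ line in every part.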

How the data were processed

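Average peak heights are a fragment coverage signal that the authors deposited for each gene and library, together with the interval and peak tracks of each library. Per the labels and the study's methods, reads were aligned to mm9 with ELAND, duplicates were removed, every library was reduced to the same number of alignments, and SICER called intervals in each library against the input. Active regions were merged over 8 libraries, 4 of them from B cells, so a region need not hold an interval in Th2 cells. The 8 columns of the B cell libraries were not used. Depth was thus set equal by the authors, at the number of uniquely mapped alignments that the study's methods state. The files used here show it only through the heights, whose totals over loci were 98042 and 101389 in the Parp14+/+ pair and 99325 and 92955 in the Parp14-/- pair, each without and then with PJ34.

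Heights were analysed with Python 3.11.15, pandas 2.3.3, NumPy 2.4.6, SciPy 1.17.1 and matplotlib 3.10.9. Lines with the same heights in the 4 ChIP libraries and the same number of regions were counted once. Ratios were divided by the median over loci above 0 in both libraries. Past the fold meant 1.4 or more, or 1/1.4 or less. Intervals were Clopper-Pearson at 95% on summed heights, which cover counting error only, and fragments at neighbouring bases are not independent counts. The computation was tested on simulated data.

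Labels and coordinates of some lines disagreed. Heights followed the coordinates, so those lines were named by the transcript at their position or left unnamed (7 of the 571 loci). Active regions within 5000 bp of a gene gave the listed number of regions for 94.3% of 11608 lines. Named loci were the 12 highest and 12 lowest ratios, the 5 tallest loci in Parp14-/-, members of the gene lists at 50 or more, Parp14, Parp1, Il4, Il5, Il13, Gata3, Stat6 and Actb, and the 3 tallest unmatched intervals of each library. Other loci named, such as Id2, Tnfsf11 and Rnf31, were chosen after their values were seen. The members and lists were chosen with earlier results of these data known. Some items that this rule names are not reported here.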

Additional observations from a re-analysis of the deposited data

Results flagged for a closer look

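Fam171b, which encodes a membrane protein, was the only locus of the 571 past 1.4-fold in opposite directions in the 2 genotypes. Its scaled ratio was 1.72 (1.2 to 2.49) in Parp14-/-, from average heights of 25.5 and 41, and 0.708 (0.495 to 1.01) in Parp14+/+, from 39 and 29. With 1 library in each group, the difference between the genotypes was not tested. The average is over 2 regions, and the tallest interval in them was at 49 in Parp14-/- and 41 in Parp14-/- + PJ34. Its summit lay beyond the end of Itgav in both.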

How the results depend on the processing

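Against 19 loci past the fold upward and 36 downward, the counts were 12 and 58 without scaling, where 12 of the 19 and all 36 remained, and 29 and 17 with scaling by the median over the 571 loci. They were 93 and 164 at a summed height of 30 or more, 0 and 3 at 100 or more, and 11 and 23 for loci chosen in the Parp14+/+ libraries. They were 1 and 0 at 2-fold, 63 and 124 at 1.2-fold, 44 and 74 with the highest point of the interval tracks, and 12 and 19 for loci with a mean summed height of 50 or more. The last choice was added after seeing the data, as was asking for an interval over the gene in the higher library (19 and 33). Scaling by the total, counting every line, and adding 1 to the heights each left both counts within 1.5 times.

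Unmatched shares of intervals were 41.4% in Parp14-/- and 28.3% in Parp14-/- + PJ34 when an overlap of 50% was asked for, and 7.04% and 3.56% at a height of 15 or more. Coverage of the end of the gene was 49.1% and 43.8% in genes of 30 kb or more, and 57.4% and 53.3% in genes with an interval in all 4 ChIP libraries. Taking every listed gene with an interval, in place of those at 50 or more, moved the medians of the PARP family to 1.01, MHC class I to 1.30, BCL2 family to 1.06, glycolysis to 0.918 and small nucleolar RNA hosts to 1.02. The causes were not tested. No paired analysis was possible because each group is 1 library, and for the same reason no replicate could be left out.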
